A study of Mus musculus with 9 samples.

Results

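Endothelial cells (ECs) are specified and kept in their vascular state by a small group of DNA-binding proteins, and 9 genes of that group were followed here in sorted mouse bone marrow (BM) ECs. They were the 3 SoxF genes (Sox7, Sox17 and Sox18), 5 Ets genes (Erg, Ets1, Ets2, Elk3 and Etv6) and Tal1, chosen by name for their known roles in endothelium. All 9 were among the 46078 mouse genes of the deposited count table, and all 9 had enough reads to be tested. The cells were sorted from wild type B6 mice as CD45-Ter119-CD31+ and split by the surface protein Sca-1, a product of Ly6a. RNA-seq was available for 4 Sca-1+ and 5 Sca-1- libraries, named here by the number at the end of their labels (7, 13, 15 and 19 for Sca-1+, and 8, 10, 14, 16 and 22 for Sca-1-). The study takes Sca-1-rich ECs as those of arteries and arterioles and Sca-1-poor ECs as those of sinusoids. The titles also mark libraries 8, 15, 16 and 19 as wt, 13, 14 and 22 as CD452 and 10 with that number without CD. Library 7 carries no such mark. The labels do not explain these marks, and wt and CD452 each occur in both fractions. The age of the mice was not given in the labels, and nothing in them said that libraries of a fraction came from separate animals, so the p-values measure the spread between these libraries only.

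SoxF proteins bind DNA through an HMG box and act together in vessel growth and arterial specification. Ets proteins recognise a GGA core that is found in the control regions of most endothelial genes, and several of them also work in blood cells. Tal1 is a basic helix-loop-helix protein that pairs with E proteins, and with Lmo2, Ldb1 and GATA factors it forms a complex that is best known from blood stem cells, erythroid cells and megakaryocytes.

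Read totals lay between 21581653 and 25959818 per library. Levels are given in CPM, the reads of a gene scaled to its library's total after TMM normalization, and 3 counts corresponded to between 0.0996 and 0.209 CPM. The fractions separated on their sorting gene, with Ly6a at 1133 ± 187 CPM (SD, n = 4) in Sca-1+ and 0.678 ± 0.524 (SD, n = 5) in Sca-1-. The labelled cell type was less evenly borne out by its markers. A list of 25 general endothelial genes (none of them among the 9) took 2.13 to 2.74% of the reads in the Sca-1+ libraries and 0.179 to 0.232% in the Sca-1- libraries, and 23 of the 25 were higher in Sca-1+. The endothelial cadherin gene Cdh5 stood at 264 ± 27.2 CPM in Sca-1+ and 7.14 ± 3.92 in Sca-1-. Conversely, 16 megakaryocyte genes took 3.10 to 6.80% of the reads in Sca-1- and 0.00506 to 0.0110% in Sca-1+, and all 16 were lower in Sca-1+. Of 16 general leukocyte genes, 15 were lower in Sca-1+ (0.0139 to 0.0229% of reads against 0.367 to 0.510%), as were 12 of 15 erythroid and 4 of 14 tested neutrophil genes. Of 10 tested B and plasma cell genes 7 were lower in Sca-1+ and 1 was higher, and of 3 tested T and NK cell genes 2 were lower and 1 was higher. The B cell gene Ms4a1 was at 0 in all Sca-1+ libraries, and Cd8a and Gzma were at 0 in both fractions. Of 12 smooth muscle and pericyte genes 9 were higher in Sca-1+, and of 10 marrow stromal genes 4 were higher and 2 lower. The part of these other cells in the differences described here was not tested, and in such bulk libraries fewer cells of a type and less RNA per cell cannot be told apart.

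Of the 9 transcription factor genes, 7 were higher in Sca-1+ ECs, namely all 3 SoxF genes and Erg, Ets1, Ets2 and Elk3. Tal1 was lower, and Etv6 did not pass the threshold (edgeR's quasi-likelihood test, adjusted p under 0.05 over 15937 genes). Differences of this kind were common, since 23.3% of all genes tested were higher and 21.4% were lower in Sca-1+. The median log2 fold change was 3.21 over the 9 genes and 0.07 over all genes tested. For the same 7 genes every Sca-1+ library lay above every Sca-1- library, and for Tal1 the reverse held, while 24.8% of all genes separated without overlap upward and 18.8% downward. Within the Sca-1+ fraction the libraries were close to each other, with coefficients of variation from 6.77% (Ets1) to 24.9% (Sox7). They were wider apart within Sca-1-, from 23.4% (Elk3) to 110.3% (Sox17). The directions also held within the titles' marks, compared without a test and without libraries 7 and 10. Among the wt libraries (2 against 2) and the CD452 libraries (1 against 2) the 7 genes were higher by 2.39 to 7.36 and by 2.57 to 9.98 in mean log2 CPM, and Tal1 differed by -2.68 and -2.39. The 9.98 is that of Sox17, which had 0 reads in Sca-1- library 14, so its size rests on the prior count of 2 used for log2 CPM. For Etv6 the 2 marks gave 0.0021 and -1.33.

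**Figure D1:**
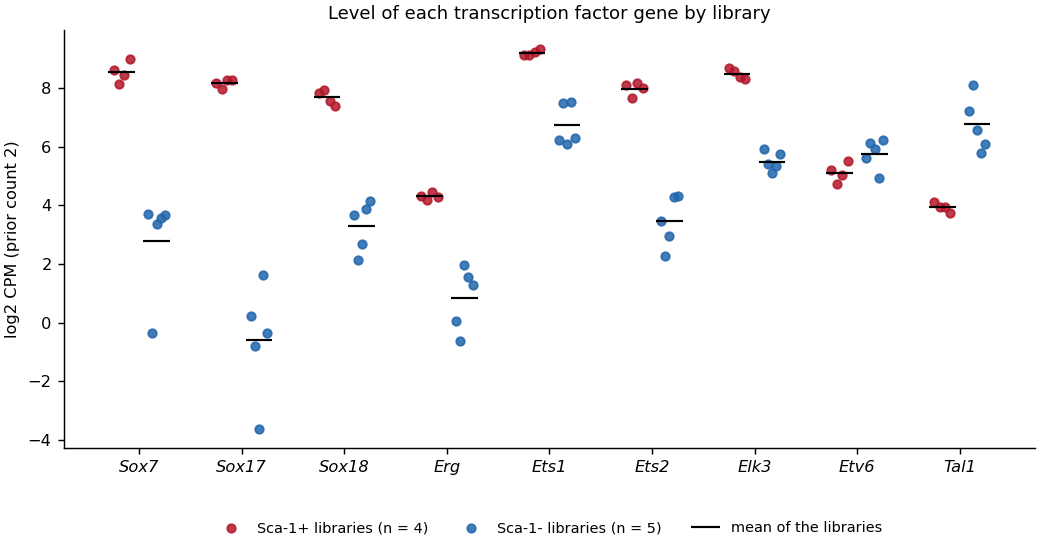
Level of each of the 9 genes in every library, as log2 CPM with a prior count of 2 (vertical axis). Red points are the 4 Sca-1+ libraries, blue points the 5 Sca-1- libraries, and black bars are means over libraries. The fractions do not overlap for any gene except Etv6, and Tal1 is the gene with the blue points on top.

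The 3 SoxF genes were higher in Sca-1+ ECs, with Sox17 and Sox7 showing the largest log2 fold changes of the 9 genes. Sox17, which is needed for arterial identity, lies on chr1:4490931-4497354 (minus strand, GRCm38). It measured 292, 252, 313 and 309.7 CPM in Sca-1+ libraries 7, 13, 15 and 19, and 1.08, 0.489, 0, 3.02 and 0.692 CPM in Sca-1- libraries 8, 10, 14, 16 and 22. The Sca-1+ libraries were even, whereas the Sca-1- libraries held between 0 and 91 Sox17 reads each, and the 0 in library 14 allows a level of up to 0.127 CPM (3 counts, counting error only). The log2 fold change was 8.06 (SE 0.91, edgeR's quasi-likelihood test, adjusted p = 1.05e-04). It was 9.03 without Sca-1- library 16, which held 91 of these reads, and 7.65 without library 14, which held 0. Exons of Sox17 share 804 bases with Gm37587 on the opposite strand, a gene counted with 76 to 127 reads in Sca-1+ and 0 in Sca-1-. Because the use of strand in counting was not given in the sources used here, reads there could belong to either gene, but they were few beside the 7400 to 9070 reads of Sox17.

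Sox7 (chr14:63943673-63950732, plus strand), an early SoxF gene of vascular and blood-forming endothelium, measured 391, 284, 349 and 511.5 CPM in Sca-1+ and 12.9, 0.698, 10.3, 11.8 and 12.6 CPM in Sca-1-. Library 10 stood apart with 10 reads, while the other 4 Sca-1- libraries lay within a narrow band. Between the fractions Sox7 differed by 5.31 on the log2 scale (SE 0.66, adjusted p = 1.79e-04 in the same edgeR fit). Sox18 (chr2:181669836-181671640, minus strand), known for its part in lymphatic and blood vessel formation, measured 228, 245, 192 and 169 CPM in Sca-1+ and 12.7, 4.33, 6.28, 14.7 and 17.7 CPM in Sca-1-. Its log2 fold change was 4.22 (SE 0.42, adjusted p = 5.18e-05 in the same edgeR fit). All 3 SoxF genes thus stayed above the 3-count floor in at least 4 of the 5 Sca-1- libraries, at levels 18.7 (Sox18), 39.8 (Sox7) and 276-fold (Sox17) below the Sca-1+ means.

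The make-up of the family differed as well. Per kilobase of exon, Sox18 contributed 42.2 ± 8.25% (SD, n = 4), Sox7 37.8 ± 7.50% and Sox17 20.002 ± 1.91% of the summed SoxF level in Sca-1+ ECs. In Sca-1- libraries the shares were 70.5 ± 12.5% (SD, n = 5) for Sox18, 27.3 ± 13.6% for Sox7 and 2.21 ± 1.90% for Sox17. The shares of Sox17 (18.2 to 22.6% against 0 to 4.76%) and of Sox18 (32.1 to 52.1% against 55.5 to 89.5%) did not overlap between the fractions, and those of Sox7 did. These shares were compared by their ranges only.

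**Figure D2:**
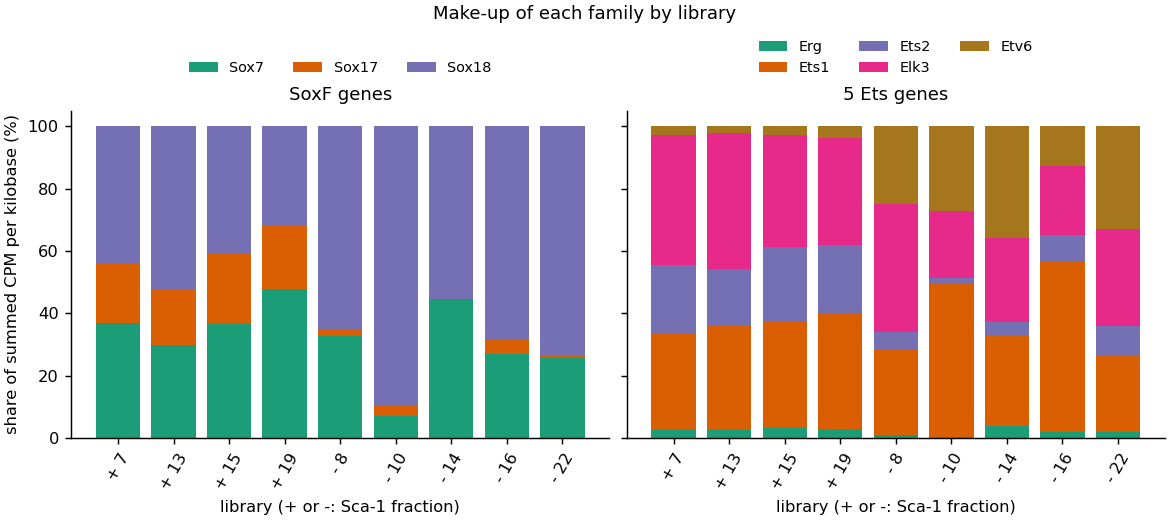
Make-up of the SoxF genes (left) and of the 5 Ets genes (right) in each library, as the share in percent of the summed CPM per kilobase of exon. Sox17 holds 18.2 to 22.6% of the SoxF level in the 4 Sca-1+ bars and at most 4.76% in the 5 Sca-1- bars, and Etv6 holds 2.27 to 3.75% of the Ets level in Sca-1+ and 12.8 to 36.0% in Sca-1-.

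Among the Ets genes, Erg is the one most closely tied to endothelial identity, where it activates junction genes such as Cdh5. It lies on chr16:95359169-95586593 (minus strand). Erg measured 19.97, 18.2, 21.9 and 19.5 CPM in Sca-1+ and 0.961, 0.559, 3.82, 2.89 and 2.36 CPM in Sca-1-. All Sca-1+ libraries were nearly equal, and libraries 8 and 10 were the lowest of Sca-1-. Erg was higher in Sca-1+ by 3.21 on the log2 scale (SE 0.51, edgeR's quasi-likelihood test, adjusted p = 6.63e-04).

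Ets2 (chr16:95702075-95721051, plus strand), a nuclear end point of Ras and MAP kinase signalling, is the gene next to Erg, 115 kb away on the opposite strand. It measured 275, 205, 288 and 259 CPM in Sca-1+ and 11.0, 4.75, 7.59, 19.5 and 20.2 CPM in Sca-1-. The log2 fold change was 4.34 (SE 0.43, adjusted p = 5.47e-05 in the same edgeR fit), the largest among the 5 Ets genes. Elk3 (chr10:93247414-93311135, minus strand) is a ternary complex factor that works with serum response factor and can repress its targets. It measured 411, 388, 337 and 318 CPM in Sca-1+ and 60.8, 42.2, 34.1, 40.2 and 53.5 CPM in Sca-1-. Elk3 was the most even of the 9 genes among Sca-1- libraries, and its log2 fold change of 2.98 had the smallest standard error (SE 0.23, adjusted p = 1.78e-05 in the same edgeR fit). Its exons share 316 bases with Cdk17 on the opposite strand, which had 3421 to 3778 reads in Sca-1+ and 1174 to 1859 in Sca-1-, so a part of the Elk3 reads could be of Cdk17.

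Ets1 (chr9:32636221-32757820, plus strand), active in growing vessels and in lymphocytes, had the smallest difference among the 7 higher genes. It measured 562, 561, 599 and 646 CPM in Sca-1+ and 75.9, 179, 68.2, 186 and 79.4 CPM in Sca-1-. The Sca-1- libraries formed an upper pair (10 and 16) and 3 lower ones, all of them at least 3.01-fold below the lowest Sca-1+ library. Its log2 fold change was 2.33 (SE 0.36, adjusted p = 5.34e-04 in the same edgeR fit). Library 10 had the lowest Sox7, Sox18, Erg and Ets2 levels but nearly the highest Ets1 level of the Sca-1- fraction.

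Etv6 (chr6:134035700-134270158, plus strand), a repressor needed for blood stem cells of the BM and for vessels of the yolk sac, measured 36.8, 26.6, 32.7 and 45.8 CPM in Sca-1+ and 48.7, 69.5, 60.3, 30.7 and 74.5 CPM in Sca-1-. Only Sca-1- library 16 fell among the Sca-1+ values. The log2 fold change was -0.68 (SE 0.28, adjusted p = 0.0768 by edgeR's quasi-likelihood test). The call depended on the test and on library 16, since the adjusted p was 0.0301 by DESeq2 and 0.0165 without that library (log2 fold change -0.84), against a range of 0.0165 to 0.543 over 20 alternatives. Etv6 shares 135 exon bases with the antisense gene Gm17089, which had 39 to 57 reads in Sca-1+ and 35 to 107 in Sca-1-.

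The Ets genes also took different shares of their family. Etv6 held 2.88 ± 0.632% (SD, n = 4) of the summed level per kilobase of these 5 genes in Sca-1+ and 26.7 ± 8.98% (SD, n = 5) in Sca-1-, without overlap, and Ets2 was 21.5 ± 2.54% in Sca-1+ against 6.02 ± 2.95% in Sca-1-, also without overlap. Ets1 (34.0 ± 2.73% against 37.0 ± 13.9%), Elk3 (38.8 ± 4.44% against 28.5 ± 7.99%) and Erg (2.79 ± 0.184% against 1.81 ± 1.37%) overlapped between the fractions. Erg had the smallest mean share in both fractions, close to that of Etv6 in Sca-1+.

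Tal1 (chr4:115056426-115071755, plus strand) was the one gene of the 9 that was higher in Sca-1-. It measured 17.2, 15.5, 15.3 and 13.2 CPM in Sca-1+ and 151, 274, 96.3, 55.6 and 69.0 CPM in Sca-1-. Its lowest Sca-1- library was 3.23-fold above its highest Sca-1+ library. The log2 fold change was -3.07 (SE 0.47, edgeR's quasi-likelihood test, adjusted p = 5.77e-04). From the highest to the lowest, Tal1 ordered the Sca-1- libraries as 10, 8, 14, 22 and 16, and the mean of the 16 megakaryocyte genes gave the same order (log2 CPM 11.99, 11.68, 10.78, 10.31 and 9.73). Gata1 and Pecam1, the gene of the CD31 gate that megakaryocytes also express, followed this order too. Lyl1 (10, 8, 14, 16, 22) differed from it only in the last 2 places. Fli1 (10, 8, 22, 14, 16) shared its first 2 places and its last, and Gata2 (10, 8, 16, 14, 22) only its first 2. The general endothelial genes were on average lowest in library 10 and highest in library 22. The part of megakaryocyte RNA in the Tal1 level was not tested.

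Compared per kilobase of exon within Sca-1+ ECs, the mean levels fell from Sox18 (128.5 CPM per kb) and Sox7 (116) through Elk3 (79.9), Ets1 (69.8), Sox17 (61.2) and Ets2 (44.4) to Etv6 (5.93), Erg (5.74) and Tal1 (3.49). Each of the first 4 overlapped with the next in its range, except that Ets1 lay wholly above Sox17. Sox17 in turn lay wholly above Ets2 and Ets2 above Etv6, Etv6 and Erg overlapped, and Erg lay above Tal1 in all 4 libraries. In Sca-1- the order was Tal1 (29.5), Ets1 (13.9), Elk3 (10.1), Etv6 (9.48), Sox18 (6.89), Sox7 (2.93), Ets2 (2.18), Erg (0.611) and Sox17 (0.221), and there every gene overlapped with the next. Tal1 moved from the last place to the first.

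To show which genes differed by more or less than endothelial genes at large, libraries were also scaled to give the 25 general endothelial genes 1 common mean log2 level in all 9. This second scaling of the same counts moved the median of all genes to -4.40, so that 1.34% of all genes were higher and 88.9% were lower in Sca-1+. Of the 9 genes 1 was higher (Sox17), 4 were lower (Ets1, Elk3, Etv6 and Tal1) and 4 passed neither way, with a median of -1.03. The split depended on the reference, since scaling to Pecam1 alone gave 5 higher and 2 lower.

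Sox17 remained higher relative to the endothelial genes, with a log2 fold change of 3.82 (SE 0.80, edgeR's quasi-likelihood test, adjusted p = 7.77e-04), 4.49 without Sca-1- library 16 and 3.48 without library 14. Its level minus the endothelial mean, in log2 units, was -0.88, -0.95, -0.81 and -0.69 in the Sca-1+ libraries and -4.30, -4.40, -8.34, -3.43 and -5.49 in the Sca-1- libraries. The -8.34 is that of library 14, where 0 reads left the value to the prior count. The gap below the endothelial mean was thus wider in every Sca-1- library. Sox7 was likewise lower in every Sca-1- library (-3.95 to -0.81) than in any Sca-1+ library (-0.77 to 0.03), by a narrow margin. Erg, Ets1, Elk3, Etv6 and Tal1 separated the other way, Erg with -4.74 to -4.65 in Sca-1+ and -4.46 to -2.75 in Sca-1-. How often all genes separated under this scaling was not counted. Under this scaling Sox18 and Ets2 lay nearest to the endothelial genes, with relative log2 fold changes of -0.06 (SE 0.32, adjusted p = 0.853) and 0.08 (SE 0.29, adjusted p = 0.786) in the same edgeR fit. Their closeness to 0 also depended on the reference: scaled to Cdh5 they were at -1.01 (adjusted p = 0.043) and -0.88 (adjusted p = 0.0585), and scaled to Pecam1 at 2.79 (adjusted p = 0.0092) and 2.79 (adjusted p = 0.0106). For Sox7 the value was 1.10 (SE 0.49, adjusted p = 0.0502) and for Erg -1.03 (SE 0.48, adjusted p = 0.0618), both just outside the threshold in this edgeR fit. Scaled to Cdh5, Sox7 was at 0.16 (adjusted p = 0.773) and Erg at -2.08 (adjusted p = 0.00809), and scaled to Pecam1 they were at 3.80 (adjusted p = 0.00388) and 1.62 (adjusted p = 0.133). Sox7 fell inside it without Sca-1- library 10 (0.83, adjusted p = 0.0113) or without library 8 (1.34, adjusted p = 0.0296), and so did Erg (-1.16, adjusted p = 0.0278, and -1.19, adjusted p = 0.0293).

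Relative to the endothelial genes, Elk3 was lower in Sca-1+ by a log2 fold change of -1.53 (SE 0.38, adjusted p = 0.00261), Ets1 by -2.32 (SE 0.59, adjusted p = 0.0029), Etv6 by -5.27 (SE 0.58, adjusted p = 5.93e-06) and Tal1 by -7.95 (SE 0.998, adjusted p = 1.54e-05), by edgeR's quasi-likelihood test. Without Sca-1- library 10 the value of Ets1 was -1.59 and that of Tal1 -6.88, both still called. Ets1, Etv6 and Tal1 are also known from blood cells, and the part of such cells in these values was not tested. Scaling to Pecam1 alone, which did not pass the threshold between the fractions (1399 ± 261 against 836 ± 613 CPM, adjusted p = 0.247 by edgeR's quasi-likelihood test), left Etv6 and Tal1 lower but turned the sign of Elk3 (1.77, adjusted p = 0.0144) and Ets1 (1.02, adjusted p = 0.149). The direction of Elk3 and Ets1 relative to endothelial genes therefore depended on the reference.

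**Figure D3:**
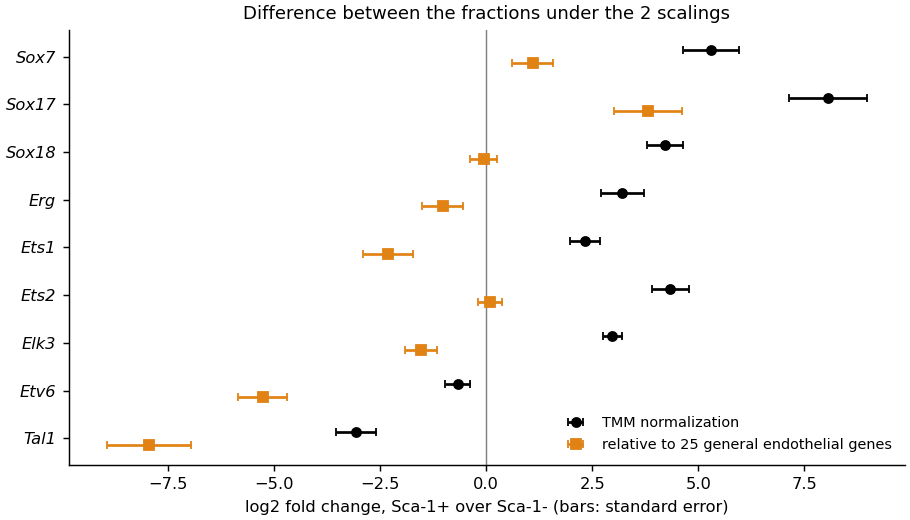
Log2 fold change of each gene, Sca-1+ over Sca-1- (horizontal axis), with its standard error as bars, under TMM normalization (black circles) and relative to 25 general endothelial genes (orange squares). Every gene shifts to the left under the second scaling: Sox17 stays at 3.82, Sox18 and Ets2 come to lie within their standard errors of 0, and Etv6 and Tal1 reach -5.27 and -7.95.

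**Figure D4:**
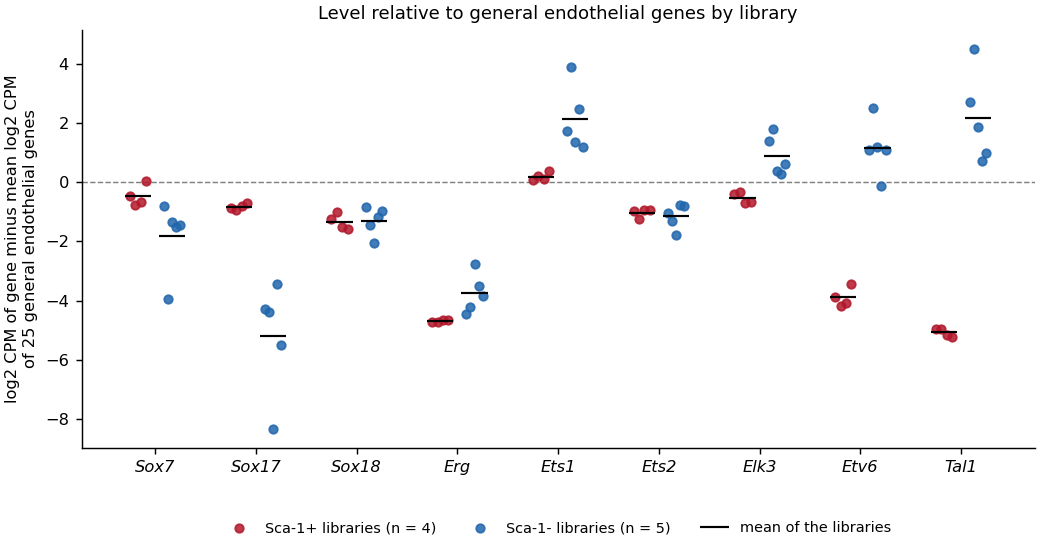
Level of each gene minus the mean of 25 general endothelial genes in the same library, in log2 CPM (vertical axis), for the 4 Sca-1+ (red) and 5 Sca-1- (blue) libraries, with means as black bars and the endothelial mean as the dashed line at 0. Sox18 and Ets2 overlap between the fractions. Sox7 (narrowly) and Sox17 are lower in all Sca-1- libraries, and Erg, Ets1, Elk3 and Etv6 are higher in them. Tal1 lies above the line in Sca-1- (0.73 to 4.51) and below it in Sca-1+ (-5.23 to -4.96).

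Promoter sequence was available for 5 of the 9 genes, as RefSeq windows of 250 bases before 8 annotated starts on GRCm38.p6. Each was searched on both strands for the Ets letters CCGGAA and CAGGAA, the Sox letters ACAAT, the GATA letters AGATAA and the E-box CANNTG that helix-loop-helix pairs bind. Over 32851 such windows of all genes, 12% held CCGGAA, 25.7% CAGGAA, 27.7% ACAAT, 9.99% AGATAA and 66.2% CANNTG. The windows printed here are those of the 9 genes that held Ets, Sox or GATA letters, which are in capitals, and each reads 5′ to 3′ on the strand of the gene. Erg start 3 (chr16:95459349-95459598, minus strand) lies within an intron of longer Erg transcripts, and the others lie outside annotated exons upstream of their genes, Elk3 at chr10:93311160-93311409 (minus strand), Etv6 at chr6:134035450-134035699 (plus strand) and Tal1 start 1 at chr4:115056176-115056425 (plus strand).
Erg start 3: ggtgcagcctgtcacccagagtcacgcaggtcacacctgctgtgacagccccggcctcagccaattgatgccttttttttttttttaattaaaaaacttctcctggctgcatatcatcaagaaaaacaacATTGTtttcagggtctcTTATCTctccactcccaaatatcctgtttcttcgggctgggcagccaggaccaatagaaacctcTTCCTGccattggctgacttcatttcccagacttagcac
Elk3: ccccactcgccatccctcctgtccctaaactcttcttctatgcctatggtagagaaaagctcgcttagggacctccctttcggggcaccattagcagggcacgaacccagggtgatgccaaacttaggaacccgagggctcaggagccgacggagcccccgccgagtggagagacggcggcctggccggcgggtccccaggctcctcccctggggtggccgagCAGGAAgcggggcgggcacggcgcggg
Etv6: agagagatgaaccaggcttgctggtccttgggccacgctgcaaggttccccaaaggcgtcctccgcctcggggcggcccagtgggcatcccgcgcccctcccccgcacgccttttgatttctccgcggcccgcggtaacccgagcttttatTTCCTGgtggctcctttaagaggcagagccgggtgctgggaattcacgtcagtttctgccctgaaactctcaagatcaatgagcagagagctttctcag
Tal1 start 1: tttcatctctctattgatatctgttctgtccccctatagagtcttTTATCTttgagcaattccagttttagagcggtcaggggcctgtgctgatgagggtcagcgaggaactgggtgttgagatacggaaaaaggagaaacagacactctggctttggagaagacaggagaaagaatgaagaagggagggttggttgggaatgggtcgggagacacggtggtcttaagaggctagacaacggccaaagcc

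In the Erg window the Ets letters lay 39, the GATA letters 103 and the Sox letters 120 bases before the start, and 2 E-boxes were also present. Elk3, which was higher in Sca-1+, and Etv6, which was not called, each held CAGGAA once, 27 and 99 bases before the start. Tal1 start 1 held AGATAA once, 205 bases before the start, and no Ets or Sox letters. Starts 1 and 2 of Erg, the window of Ets2 and start 2 of Tal1 held none of these letters. A match describes the letters only.

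Of 21 further Ets family members 16 were tested, of which 2 were higher (Etv1 and Erf), 5 were lower (Fli1, Elf1, Etv2, Spi1 and Spib) and 9 were not called, with a median log2 fold change of -0.10. Over all genes 23.3% were higher and 21.4% lower, and no test set these genes against the 5 described. Fli1, a close relative of Erg that acts in both endothelium and megakaryocytes, measured 102, 113, 130 and 152 CPM in Sca-1+ and 436, 729, 283, 146.5 and 298 CPM in Sca-1-. It was lower in Sca-1+ by a log2 fold change of -1.61 (SE 0.42, edgeR's quasi-likelihood test, adjusted p = 0.0101), with library 16 among the Sca-1+ values. Fli1 and Ets1 are neighbours on chromosome 9 (93.4 kb apart, opposite strands) and went in opposite directions. Elf1 (-2.69, adjusted p = 0.00374) and Spi1 (-4.24, adjusted p = 0.00805), both active in leukocytes, were lower in the same edgeR fit.

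**Figure D5:**
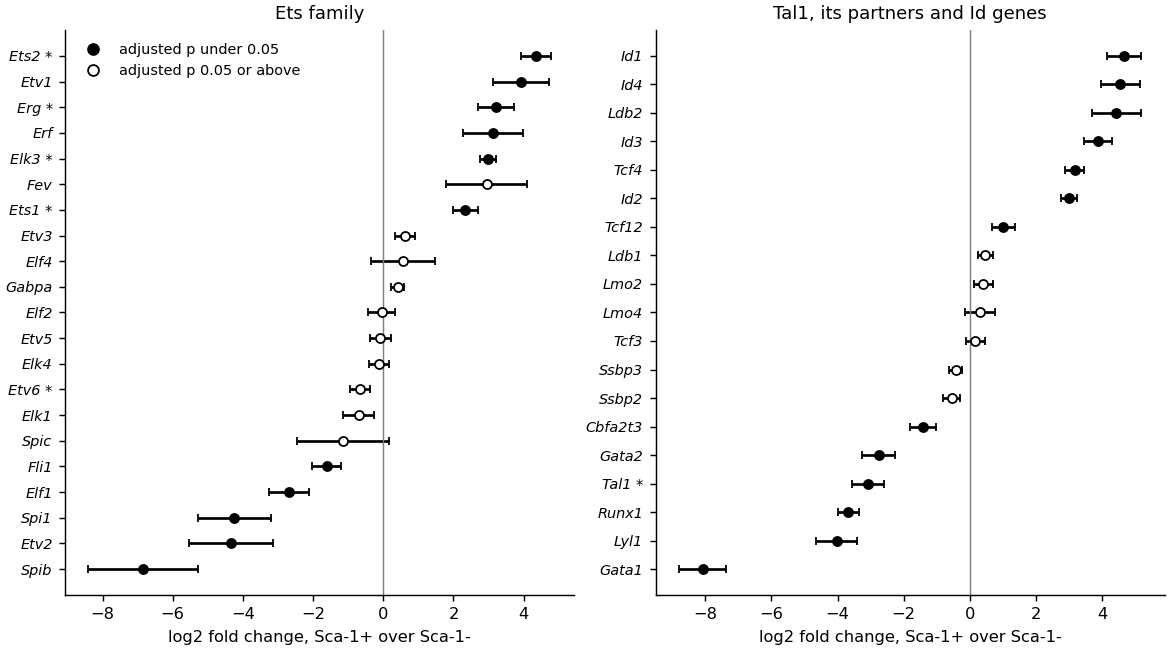
Log2 fold change with standard error, Sca-1+ over Sca-1- (horizontal axis), of the tested Ets family genes (left) and of Tal1, its partners and the Id genes (right). The genes followed here carry an asterisk, filled points had an adjusted p under 0.05 and open points did not. Among the filled points, Ets2, Erg, Elk3 and Ets1 lie on the right with Etv1 and Erf. Tal1 lies on the left with Gata1, Lyl1, Runx1, Gata2 and Cbfa2t3.

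Of 16 other Sox genes 8 were tested, 4 were higher in Sca-1+ (Sox4, Sox8, Sox11 and Sox13), 0 were lower by edgeR's quasi-likelihood test and 4 were not called, with a median of 1.10. The shares over all genes were 23.3% higher and 21.4% lower, and the list itself was not tested. Sox11 (24.6 ± 13.1 CPM against 0.313 ± 0.633, log2 fold change 6.38, adjusted p = 0.00239) and Sox13 (79.0 ± 22.7 CPM against 1.96 ± 1.502, log2 fold change 5.33, adjusted p = 4.96e-04) had the largest differences in the same edgeR fit. Sox4 differed less (264 ± 63.2 CPM against 127 ± 49.5, log2 fold change 1.05, adjusted p = 0.02), and 54.6% of its exon bases overlap an opposite-strand gene.

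Tal1 partners and Id genes went both ways. Of 18 tested genes 7 were higher in Sca-1+, namely Ldb2, the E protein genes Tcf4 and Tcf12 and all 4 Id genes, whose products bind E proteins and keep them off DNA. Lyl1, Gata1, Gata2, Runx1 and Cbfa2t3 (5 genes) were lower, as Tal1 was, and 6 were not called, with a median log2 fold change of 0.36 over the list. The 6 included the E protein gene Tcf3 and Ldb1, whose relatives Tcf4, Tcf12 and Ldb2 were higher. As shares of the list, both counts stand against 23.3% and 21.4% of all genes. Id1 stood at 608 ± 176 CPM in Sca-1+ and 23.7 ± 17.4 in Sca-1- (log2 fold change 4.68, edgeR's quasi-likelihood test, adjusted p = 9.36e-05). Id4 (4.55) and Ldb2 (4.43) were of like size. Lyl1, the nearest relative of Tal1, stood at 3.82 ± 0.898 CPM in Sca-1+ and 62.6 ± 48.8 in Sca-1- (log2 fold change -4.03, adjusted p = 5.93e-04 in the same edgeR fit). Gata1, the erythroid and megakaryocyte GATA factor, stood at 4.52 ± 1.91 against 1228 ± 862 CPM (-8.08), and Gata2, which endothelium also uses, at 125 ± 30.0 against 845 ± 590 CPM (-2.76). Runx1 had a log2 fold change of -3.67. Lmo2, which bridges Tal1 and GATA factors, was 220 ± 60.9 CPM in Sca-1+ and 165 ± 46.7 in Sca-1-, and its difference of 0.42 did not pass the threshold (adjusted p = 0.254 by edgeR's quasi-likelihood test).

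Of 26 endothelial genes with known SoxF or Ets regulation, 21 were higher in Sca-1+, 1 was lower and 4 were not called, with a median log2 fold change of 4.48. Over all genes the shares were 23.3% higher and 21.4% lower. Among the 25 general endothelial genes 23 were higher, with a median of 4.74, and no test compared the 2 lists. Of the 26, Cdh5, Cldn5, Kdr, Flt1, Tek, Tie1, Eng, Egfl7, Icam2, Robo4, Nos3 and Esam also belong to the general endothelial list. The largest differences were those of Nrp1 (log2 fold change 6.76), a co-receptor for VEGF, the apelin receptor gene Aplnr (6.53) and the VEGF receptor gene Flt1 (5.92). Vwf, which both ECs and megakaryocytes make, was the lower one, at 75.7 ± 45.3 against 778 ± 446 CPM (-3.36, adjusted p = 8.44e-04 by edgeR's quasi-likelihood test). Relative to the general endothelial genes 6 of the 26 were higher and 6 lower, with a median of 0.22. Under that scaling 1.34% of all genes were higher and 88.9% lower. The shared genes helped to set the scaling, so a spread around 0 was partly fixed in advance.

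The genes with the most similar pattern over the 9 libraries were found by Pearson's r of log2 CPM among 9859 genes. This is a description, since all such values share the difference between the fractions. For Sox17 they were Nrp1 (r = 0.999) and Plod3 (0.997), for Sox7 Yes1 (0.998) and Ptprb (0.997), and for Sox18 Lgals8 (0.997) and Gimap4 (0.996). For Erg they were Phf11d and Elovl5 (both 0.993), for Ets2 Galnt10 and Tnfaip1 (both 0.996), for Elk3 Ctnnd1 and Dirc2 (both 0.994), and for Ets1 Hecw2 (0.991) and P2ry2 (0.983). Etv6 had the least close neighbours, Lin7c (0.966) and Vps33a (0.957). The pattern of Tal1 was nearest to those of Dok1 (0.998) and Cat (0.997).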

How the data were processed

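RNA-seq libraries of sorted BM ECs from wild type mice were compared, 4 Sca-1+ and 5 Sca-1-. Groups were taken from the labels. Per the labels, a low-input kit made full-length cDNA from poly(A) RNA without molecular identifiers, so floors cover counting error only. The authors deposited 1 table of raw read counts per gene, not normalized. The submitters' processing notes name STAR, featureCounts and mm10, and their settings, annotation and use of strand are not given in the sources used here. The 9 genes and all gene lists were chosen from general knowledge with earlier results of these data known.

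Counts were analysed with edgeR 4.0.16 in R 4.3.3. Of 26424 genes with at least 1 count, 15937 passed filterByExpr (minimum count 10, minimum total 15). The two-sided quasi-likelihood F-test was used after TMM normalization, p-values were adjusted by Benjamini-Hochberg across every gene in the fit, and 0.05 was the threshold. The common dispersion was 0.301. For the second comparison library sizes were set so that the mean log2 CPM (prior count 2) of 25 general endothelial genes was equal in all libraries. No test was made on a gene list. On simulated counts for 15937 genes, of which 15509 were tested, 186 of 200 genes changed 8-fold were called in the right direction, along with 6 unchanged genes. No library pair agreed within sampling noise (chi-square per degree of freedom of at least 40). Levels per kilobase used union exon lengths of GENCODE M21 (GRCm38), in which 45143 of the 46078 identifiers were found. Of the listed symbols only Epb42 was unmatched. Named genes were the 9, the sorting and gating genes, Fli1, Gata2, Lyl1 and Lmo2, and from each family list up to 3 called genes at either end with an average log2 CPM of at least 3. Other names were given to complete small counts. Alternatives changed normalization, filter, test (DESeq2 1.42.0, limma 3.58.1), libraries, pairing and reference genes. The comparison within the titles' marks was added after seeing the data. Plots were drawn with matplotlib 3.10.9.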

Additional observations from a re-analysis of the deposited data

Results flagged for a closer look

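Among 80 groups of library values of the 9 genes and of related genes, 6 had 1 library farther from the others than Dixon's 95% limit allows, where chance gives about 1 in 20. Sox7 was at a log2 CPM of -0.36 in Sca-1- library 10, against 3.37 to 3.70 in the other 4. Relative to the endothelial mean Sox7 was again low in that library, at -3.95 against -1.50 to -0.81. Ldb2 was also low in library 10 (log2 CPM of -1.22, against 2.64 to 4.19), and Runx1 was high in it (6.65, against 5.95 to 6.04). In the Sca-1+ fraction, Id4 was high in library 15 (log2 CPM of 7.51, against 7.15 to 7.19). Ets2 relative to the endothelial mean was low in library 13, at -1.25 against -0.96 to -0.93. Library 10 had the lowest endothelial mean (log2 CPM of 3.59) and the highest mean of the megakaryocyte genes (11.99) in its fraction, and the part of this in its 3 low or high genes was not tested.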

How the results depend on the processing

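The 7 higher genes and Tal1 kept their direction and their call under all 20 alternatives of the first comparison, and only Etv6 changed its call, as given with its values. In the first comparison 7137 genes differed. The total was 6589 to 8240 under other normalizations, filters and tests, and 5957 to 6969 with 1 library left out. Library size alone moved the split from 3721 higher and 3416 lower to 4158 and 2431, with a median log2 fold change of 0.43. A replicate block over the consecutive end numbers (6 libraries) gave 4340 genes against 5360 in the same libraries without the block. The labels do not say that these numbers pair animals, although the titles of libraries 15 and 16 also share another number, and a replicate block of that pair gave 6847 genes. Deviations of the pairs correlated at 0.147, 0.148 and 0.042, and the highest other pair at 0.065. The block changed no call among the 9 genes.

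Relative to endothelial genes, 5 to 7 of the 9 were called (7 without Sca-1- library 8 or 10, with Cdh5 or Pecam1 as reference, and by limma voom), and 112 of 135 values kept direction and call, 12 became significant with the same sign and 11 changed sign. Of these 11, Sox18 also gained a call and Ets1 lost its call, both with Pecam1 as reference. Sox18, which was not called, lay between -0.2134 and 0.0562 with 1 library left out and changed sign without Sca-1+ library 15 (0.0013) or 19 (0.0143) or Sca-1- library 8 (0.0562) or 22 (0.0146), and to 2.79 with Pecam1 as reference. Ets2 lay between -0.0485 (without Sca-1- library 14) and 0.1797, and changed to -0.88 with Cdh5 and to -0.11 with the median as reference. With Pecam1, Erg (1.62), Ets1 (1.02) and Elk3 (1.77) turned positive. Why the references differ was not tested. Depth limits Sox17 and Erg in Sca-1-, where libraries held 0 to 91 and 8 to 90 reads of them.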

Other observations

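The nearest protein-coding neighbours of the 9 genes, chosen by position after values were known, gave a mixed picture. Next to Tal1, Pdzk1ip1 (17.0 kb downstream, same strand) stood at 0.936 CPM in Sca-1+ (0.658 to 1.35 over 4 libraries) and 236 CPM in Sca-1- (115 to 355 over 5 libraries), a log2 fold change of -7.97 (edgeR's quasi-likelihood test, adjusted p = 1.32e-05), larger than that of Tal1 itself. Stil, 13.2 kb on the other side, was not called (-1.997, adjusted p = 0.155 in the same edgeR fit). Tcea2, 8.67 kb from Sox18, was higher in Sca-1+ (2.21, adjusted p = 0.00484), while Prpf6 on the other side was not called (0.17, adjusted p = 0.468). Pinx1 beside Sox7 (0.57, adjusted p = 0.174) and Mrpl15 beside Sox17 (-0.57, adjusted p = 0.13) were not called either in this edgeR fit. Lta4h beside Elk3 was higher (0.86, adjusted p = 0.0142 in the same edgeR fit). So was Kirrel3, 1728 kb from Ets1 (3.53, adjusted p = 0.0232), at 1.53 CPM in Sca-1+ and 0.131 in Sca-1-. Kcnj15 beside Erg, Psmg1 beside Ets2 and Cfap54 beside Elk3 were not called. Over all genes tested 23.3% were higher and 21.4% lower.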
